A study of Mus musculus with 6 samples.

Results

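The genes described here form the MYC, MAX and Mondo network of transcription factors, together with 2 of its known targets, *Txnip* and *Arrdc4*. They were chosen by name and by no measured threshold, with earlier results of these data known. The 10 genes were *Myc*, *Max*, *Mxd1*, *Mxd4*, *Mxi1*, *Mnt*, *Mlx*, *Mlxip*, *Txnip* and *Arrdc4*. All 10 were among the 16840 genes of the deposited count table, and all 10 passed the filter on low counts that left 12340 genes for testing. RNA had been sequenced from wild-type mouse alveolar macrophages, the resident phagocytes of the lung air spaces, at day 2 of culture. The 3 groups of 2 libraries were cells with GM-CSF (granulocyte-macrophage colony-stimulating factor) and an agent that the labels call only DON, cells with GM-CSF alone, and cells without GM-CSF. All 3 groups share the wild-type genotype and the day. The labels name the cells AM without saying whether they were primary cells or a line, and do not tell how the replicates of a group were obtained, so the p-values below cover the spread among these libraries and nothing wider.

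MYC is a basic helix-loop-helix leucine zipper protein that binds the DNA letters CACGTG, the E-box, as a dimer with MAX, and raises the transcription of genes for growth, ribosome production and metabolism. The proteins of *Mxd1*, *Mxd3*, *Mxd4*, *Mxi1*, *Mnt* and *Mga* compete with MYC for MAX and repress transcription, the MXD proteins and MNT by recruiting SIN3 and histone deacetylases. MLX is a second dimer partner, which pairs with MondoA, the product of *Mlxip*. MondoA with MLX responds to glucose phosphates and binds the carbohydrate response element, or ChoRE, a pair of E-box-like letters. *Txnip* encodes an alpha-arrestin that binds thioredoxin and lowers glucose uptake, and *Arrdc4* a related alpha-arrestin. *Mycn* and *Mlxipl* were not found under these symbols in the count table.

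Total counts per library lay between 28321986 and 35196387. All 14 macrophage markers had counts in every group, with summed levels of 37200 to 39100 CPM (counts relative to the TMM-scaled total of the library) with GM-CSF and DON, 33400 to 33700 CPM with GM-CSF, and 54000 to 54900 CPM without GM-CSF. Of markers of other cells, the 7 for dendritic cells summed to 25.5 to 25.6 CPM with GM-CSF and DON, 27.9 to 28.2 CPM with GM-CSF, and 8.64 to 8.91 CPM without GM-CSF, where *Cd209a* was at 0. The 4 of 9 granulocyte and mast cell markers in the table summed to 71.5 to 74.0 CPM with GM-CSF and DON, 61.3 to 63.4 CPM with GM-CSF, and 111 to 115 CPM without GM-CSF. The 10 of 11 lung epithelial markers summed to 106 to 109 CPM with GM-CSF and DON (*Sftpc* at 0), 166 to 172 CPM with GM-CSF (*Sftpb* at 0), and 105 to 117 CPM without GM-CSF (*Nkx2-1* at 0). The 5 of 9 lymphocyte markers summed to between 180 and 199 CPM in every library, and the 7 of 8 stromal and endothelial markers to at most 1.91 CPM, with *Col1a1* at 0 with GM-CSF and DON. Most of the lymphocyte sum was *Cd2*, which averaged 184 CPM with GM-CSF and DON, 195 CPM with GM-CSF and 193 CPM without. In the same order, *Cd8a* averaged 0.80, 0.79 and 0.88 CPM, and *Cd4* 0.015, 0.017 and 0.45 CPM. Most of the epithelial sum was *Cdh1* (25.6, 97.9 and 13.8 CPM) and *Abca3* (80.1, 68.8 and 91.9 CPM), while *Epcam* averaged 0.75, 0.66 and 1.81 CPM. The part of these differences in the results on the network was not tested. In bulk RNA, fewer cells of a type and less RNA per cell cannot be told apart.

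The promoters of both Mondo targets and of a pair of MAX-binding repressors are shown because the letters read by these factors differ between them. Promoter windows from RefSeq (GRCm38.p6, 250 bases before to 50 after the start) were found for 9 of the 10 genes. None was found for *Myc*, so its promoter was not searched. Printed are the 250 bases before the start, 5′ to 3′ on the gene's strand, for *Txnip* (chr3:96557707-96557956, plus strand), *Arrdc4* (chr7:68749239-68749488, minus strand), *Mxd4* (chr5:34187711-34187960, minus strand) and *Mnt* (chr11:74830674-74830923, plus strand). Capitals mark a ChoRE match in *Txnip* and an E-box match in the other three.
Txnip: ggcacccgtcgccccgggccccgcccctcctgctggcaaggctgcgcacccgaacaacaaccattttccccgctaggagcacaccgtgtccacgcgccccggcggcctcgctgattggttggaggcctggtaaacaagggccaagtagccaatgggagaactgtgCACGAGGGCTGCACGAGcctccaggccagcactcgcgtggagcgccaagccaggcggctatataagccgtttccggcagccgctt
Arrdc4: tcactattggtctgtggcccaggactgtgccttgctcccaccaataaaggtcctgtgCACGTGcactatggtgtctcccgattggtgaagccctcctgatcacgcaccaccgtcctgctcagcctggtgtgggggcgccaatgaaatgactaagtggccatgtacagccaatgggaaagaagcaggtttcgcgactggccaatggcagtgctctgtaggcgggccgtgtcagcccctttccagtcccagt
Mxd4: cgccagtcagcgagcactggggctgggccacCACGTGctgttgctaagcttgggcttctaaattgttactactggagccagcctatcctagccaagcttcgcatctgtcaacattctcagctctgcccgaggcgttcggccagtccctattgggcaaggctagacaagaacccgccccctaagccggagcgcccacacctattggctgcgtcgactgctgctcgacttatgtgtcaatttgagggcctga
Mnt: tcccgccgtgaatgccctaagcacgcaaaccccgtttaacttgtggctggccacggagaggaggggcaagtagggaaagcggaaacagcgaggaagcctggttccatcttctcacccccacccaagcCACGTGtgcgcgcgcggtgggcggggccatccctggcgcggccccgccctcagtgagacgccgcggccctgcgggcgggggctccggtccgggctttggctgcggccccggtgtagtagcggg

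The ChoRE was searched as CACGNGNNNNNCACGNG and the E-box as CACGTG, on both strands, along with CCAAT, the letters read by the factor NFY. A ChoRE match here means only this pattern, with both parts in the same orientation. Forms of the element whose letters do not match it, as an inverted part can give, were not counted. The 2 searched E-box-type patterns can overlap, but no window of the 9 genes searched held both. *Txnip* was the 1 member with a ChoRE match, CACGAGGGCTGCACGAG, whose first base lies 85 bases before the start. Such a match was found in 16 of 32851 promoter windows (0.0487%). *Txnip* also held 2 CCAAT matches, at 137 and 102 bases before its start. *Arrdc4* held no ChoRE match in this window, but an E-box 193 bases before the start and 6 CCAAT matches. An E-box was in the windows of 5 members, *Max*, *Mxd4*, *Mnt*, *Mlx* and *Arrdc4*, against 7.15% of all windows, and CCAAT was in 37.4% of all windows. These matches describe letters and not binding.

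**Figure D1:**
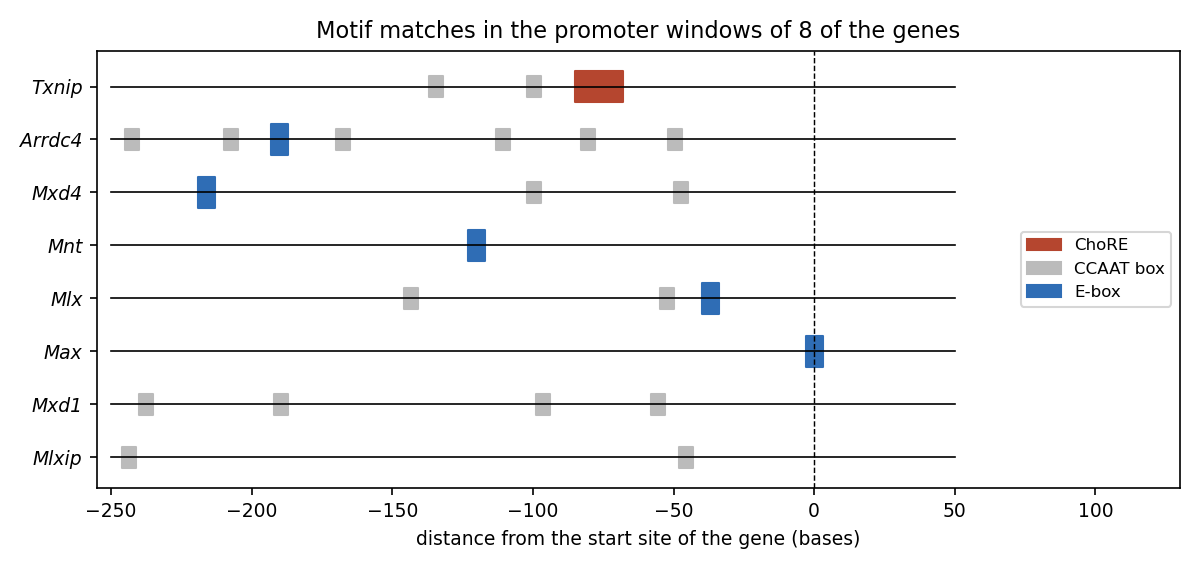
Position of each match to the E-box, ChoRE and CCAAT letters in the promoter windows of the 8 members that held any, on the horizontal axis in bases from the start site (0, dashed line). *Txnip* alone carries a match to the searched ChoRE pattern, 85 bases before the start, and *Arrdc4* carries 6 CCAAT matches and an E-box. The 3 windows of *Mxi1* held no match.

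Adding DON to GM-CSF moved 8 of the 10 genes: *Mxi1*, *Mxd4*, *Mnt*, *Mxd1* and *Max* rose, and *Txnip*, *Myc* and *Arrdc4* fell, all at an adjusted p under 0.05. The test throughout was the quasi-likelihood test of edgeR, and its p-values were adjusted by Benjamini and Hochberg's method across the 12340 genes. The same threshold was passed by 57.6% of all genes tested, 28.8% higher and 28.8% lower, so the count of 8 says little by itself. The libraries did not overlap for 9 of the 10 genes, against 79.4% of all genes. *Txnip* was the 1 member past 2-fold, a size reached by 9.37% of genes. The median change of the 10 genes was 0.09 on the log2 scale, beside 0.01 for all genes.

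GM-CSF alone, set against cells without it, also moved 8 of the 10, of which *Max*, *Mxd1*, *Mlx* and *Arrdc4* rose and *Txnip*, *Mnt*, *Mlxip* and *Mxd4* fell. Of all genes tested, 56.8% passed, 27.5% higher and 29.3% lower. The libraries did not overlap for any of the 10, against 78.7% of all genes, and none of the 10 reached 2-fold, against 11.7%. The count of 4 that rose was 2 without GM-CSF replicate 1, where the calls of *Max* and *Mlx* were lost. The median change was 0.01, beside -0.02 for all genes. Cells with GM-CSF and DON, set against cells without GM-CSF, had 9 of the 10 called, 5 higher and 4 lower, against 55.6% of all genes (27.2% higher, 28.4% lower); libraries did not overlap for any of the 10, against 77.6%, and *Txnip* alone passed 2-fold, against 11.6%. The 3 comparisons share libraries pairwise, so their values are given side by side and are not independent of each other.

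**Figure D2:**
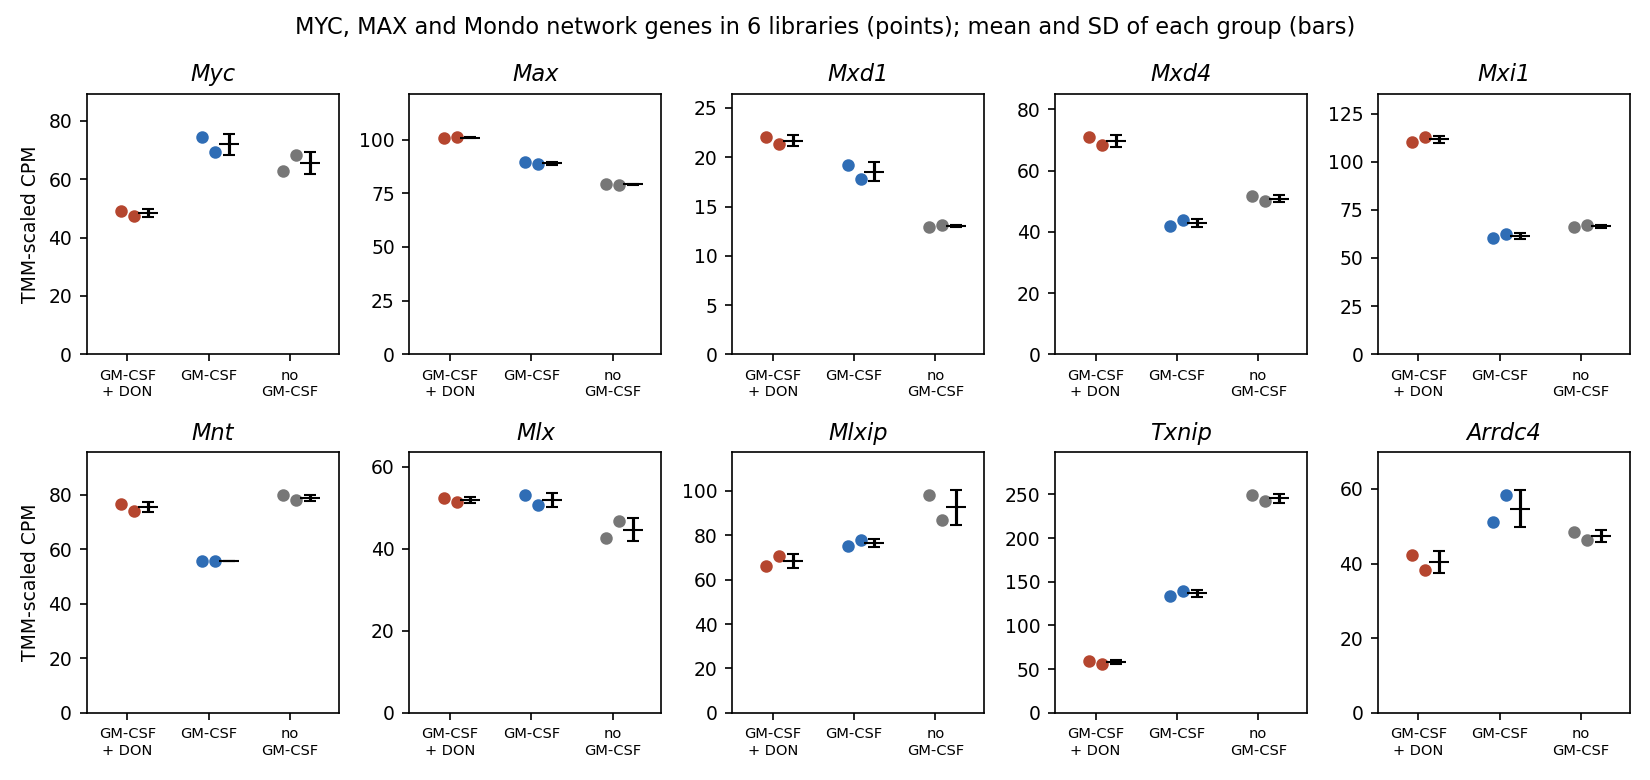
Level of each of the 10 genes (vertical axis, CPM, starting at 0) in each library (points), with the mean and SD of the 2 libraries of each group, for GM-CSF with DON, GM-CSF and no GM-CSF. *Txnip* lies at 56.2 to 59.5 CPM with DON, 134 to 139 CPM with GM-CSF and 242 to 249 CPM without GM-CSF.

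*Myc* itself (chr15:61985391-61990374, GRCm38, protein coding) was lowest with DON. It had 49.3 and 47.4 CPM with GM-CSF and DON, 74.5 and 69.5 CPM with GM-CSF, and 62.8 and 68.2 CPM without GM-CSF. Both DON libraries lay below all 4 others, and the lowest GM-CSF library lay just above the highest without GM-CSF. *Myc* fell by 0.58 ± 0.06 (SE) on the log2 scale with DON against GM-CSF (adjusted p = 2.64e-05, edgeR), and by 0.44 ± 0.06 against no GM-CSF (adjusted p = 0.000171, edgeR). For GM-CSF against no GM-CSF the difference of 0.14 ± 0.06 did not pass (adjusted p = 0.0734, edgeR). Over the 13 alternatives this difference ranged from 0.08 (without no GM-CSF replicate 1, adjusted p = 0.374, edgeR) to 0.20 (without no GM-CSF replicate 2, adjusted p = 0.0298), and the second was the 1 alternative in which it passed. Without GM-CSF replicate 1 it was 0.09 (adjusted p = 0.367).

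*Max* (chr12:76937269-76962201), the partner that MYC and its repressors share, was highest with DON. Its levels were 101 and 101 CPM with GM-CSF and DON, 89.6 and 88.5 CPM with GM-CSF, and 79.4 and 78.9 CPM without GM-CSF. The 3 groups did not overlap and stood in 1 order. *Max* rose by 0.18 ± 0.04 with DON against GM-CSF (adjusted p = 0.00573, edgeR), by 0.17 ± 0.04 with GM-CSF against none (adjusted p = 0.0083), and by 0.35 ± 0.04 with DON against no GM-CSF (adjusted p = 9.04e-05). The GM-CSF call was lost without GM-CSF replicate 1 (0.16, adjusted p = 0.0511, edgeR) and on the authors' FPKM with limma, where the difference was 0.10 (adjusted p = 0.155).

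Among the repressors, *Mxi1* (chr19:53310518-53375810), a MAX partner that recruits SIN3, gained most with DON. It had 110 and 113 CPM with GM-CSF and DON, 60.4 and 62.4 CPM with GM-CSF, and 65.9 and 67.1 CPM without GM-CSF. The DON libraries stood far above all others, which lay close together. *Mxi1* rose by 0.86 ± 0.05 with DON against GM-CSF (adjusted p = 4.2e-07, edgeR) and by 0.75 ± 0.05 against no GM-CSF (adjusted p = 5.56e-07). GM-CSF against none gave -0.12 ± 0.05 and missed the threshold (adjusted p = 0.0638, edgeR).

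*Mxd4* (chr5:34173883-34187720), whose protein is found mainly in cells that leave the cell cycle, followed the same order. Its libraries read 71.0 and 68.2 CPM with GM-CSF and DON, 42.1 and 43.7 CPM with GM-CSF, and 51.6 and 50.05 CPM without GM-CSF. No groups overlapped, and GM-CSF alone was lowest. The rise with DON was 0.70 ± 0.05 against GM-CSF (adjusted p = 2.74e-06, edgeR) and 0.45 ± 0.05 against no GM-CSF (adjusted p = 4.39e-05), and the fall with GM-CSF was -0.25 ± 0.05 (adjusted p = 0.00288).

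*Mnt* (chr11:74830920-74845725), the repressor present in both resting and dividing cells, was lowest with GM-CSF alone. It had 76.7 and 74.1 CPM with GM-CSF and DON, 55.7 and 55.6 CPM with GM-CSF, and 79.7 and 78.1 CPM without GM-CSF. The DON libraries lay just below those without GM-CSF, and both groups lay well above GM-CSF alone. *Mnt* rose by 0.44 ± 0.05 with DON against GM-CSF (adjusted p = 3.6e-05, edgeR) and fell by 0.50 ± 0.05 with GM-CSF against none (adjusted p = 1.14e-05). With DON against no GM-CSF the difference was -0.07 ± 0.05 (adjusted p = 0.264, edgeR), with a 95% interval of the ratio between 0.887 and 1.03.

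*Mxd1* (chr6:86647042-86669161), also called Mad1 and known for its induction in differentiating myeloid cells, was highest in both groups with GM-CSF. It had 22.1 and 21.3 CPM with GM-CSF and DON, 19.2 and 17.8 CPM with GM-CSF, and 12.9 and 13.1 CPM without GM-CSF. The libraries without GM-CSF lay lowest, with a gap to the rest larger than the spread within any group. The rise was 0.51 ± 0.08 with GM-CSF against none (adjusted p = 0.000248, edgeR) and 0.73 ± 0.07 with DON against none (adjusted p = 1.84e-05). The further 0.23 ± 0.07 with DON against GM-CSF passed in edgeR (adjusted p = 0.0211). It did not pass with DESeq2 (adjusted p = 0.16), without GM-CSF replicate 2 (adjusted p = 0.135, edgeR), without DON replicate 1 (adjusted p = 0.0919, edgeR) or on FPKM (adjusted p = 0.132, limma).

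Of 5 further network genes, 3 were in the table and 2 were tested. *Mxd3*, an MXD repressor known for its expression in dividing cells, ran the other way from *Mxd4* and *Mxi1*, with 2.38 and 3.59 CPM with GM-CSF and DON, 4.49 and 5.17 CPM with GM-CSF, and 2.58 and 2.97 CPM without GM-CSF. It fell by 0.68 ± 0.20 with DON against GM-CSF (adjusted p = 0.0156, edgeR) and rose by 0.79 ± 0.20 with GM-CSF (adjusted p = 0.00727). Both calls were lost without GM-CSF replicate 2 (adjusted p = 0.0965 and 0.0564, edgeR), and the first also without DON replicate 1 (-0.42, adjusted p = 0.106). Exons of *Mxd3* overlap *Prelid1* on the other strand, which had 8337 and 8929 counts with GM-CSF and DON, 14300 and 12069 counts with GM-CSF, and 8253 and 8428 counts without GM-CSF. Both genes were highest with GM-CSF. With the strand setting unknown, reads in the 105 exon bases that they share cannot be told apart. *Mga*, a large MAX partner of repressive complexes, had 29.2 and 33.7 CPM with GM-CSF and DON, 32.5 and 32.5 CPM with GM-CSF, and 59.7 and 38.2 CPM without GM-CSF, where the 2 libraries stood far apart. Its fall of -0.59 ± 0.16 with GM-CSF against none (adjusted p = 0.0114, edgeR) was lost without either GM-CSF library (adjusted p = 0.0712 and 0.0654) and with DESeq2 (adjusted p = 0.0646), at nearly the same size. Its size rested on the no GM-CSF libraries, at -0.23 without replicate 1 of that group (adjusted p = 0.0421, edgeR) and -0.88 without replicate 2 (adjusted p = 6.98e-07). Its difference of -0.64 ± 0.17 with DON against none (adjusted p = 0.00829, edgeR) was lost without DON replicate 1 (adjusted p = 0.0798) and was -0.28 without no GM-CSF replicate 1 (adjusted p = 0.0177). *Mycl1*, a MYC relative, had 0 counts in the 4 libraries with GM-CSF, and 3 and 1 counts without.

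**Figure D3:**
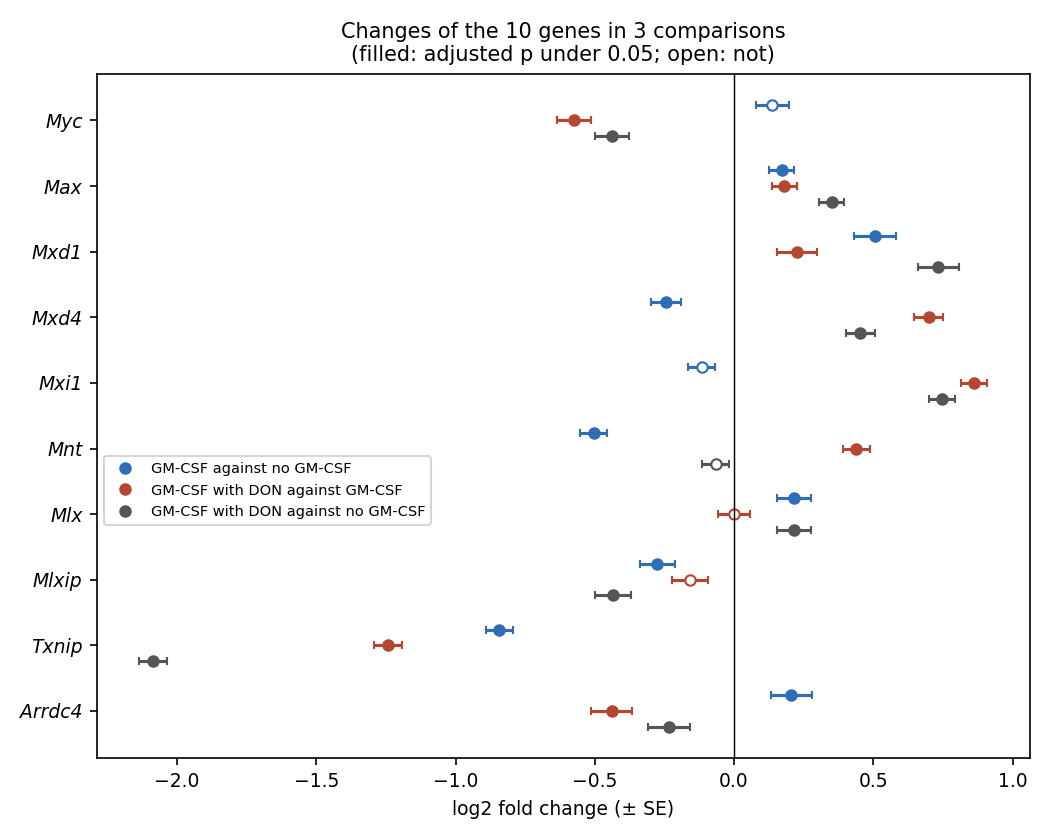
Log2 fold change with its SE (horizontal axis) of each of the 10 genes in the 3 comparisons, filled where the adjusted p was under 0.05. *Mxi1*, *Mxd4* and *Mnt* lie to the right for DON against GM-CSF, at 0.86, 0.70 and 0.44, and *Txnip*, *Myc* and *Arrdc4* to the left, at -1.24, -0.58 and -0.44.

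Levels per length set the repressors beside *Myc*. In FPKM, the authors' values per kilobase of transcript and per unit of sequencing depth, *Mxi1* and *Mxd4* together made 42.3 and 43.9 with GM-CSF and DON, 24.6 and 25.6 with GM-CSF, and 29.3 and 29.0 without GM-CSF. The summed FPKM of *Mxd1*, *Mxd3*, *Mxd4*, *Mxi1*, *Mnt* and *Mga* was 70.5 and 73.2 with GM-CSF and DON, 51.4 and 51.7 with GM-CSF, and 62.0 and 59.5 without GM-CSF. Divided by the FPKM of *Myc*, these sums gave 2.78 ± 0.19 with GM-CSF and DON, 1.30 ± 0.06 with GM-CSF, and 1.70 ± 0.14 without GM-CSF (SD, n = 2 each). The ratios of the 3 groups did not overlap, with the lowest DON library at 2.65 and the highest other library at 1.80. The gene length implied by counts over FPKM varied between libraries for *Mga*, part of the sum, from 5320 to 7786 bases (SD 12.7%). Computed from counts with 1 length per gene, the mean ratio was 2.76 with GM-CSF and DON, 1.30 with GM-CSF and 1.66 without GM-CSF. No test of the ratio was made, and RNA ratios say nothing of the proteins.

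**Figure D4:**
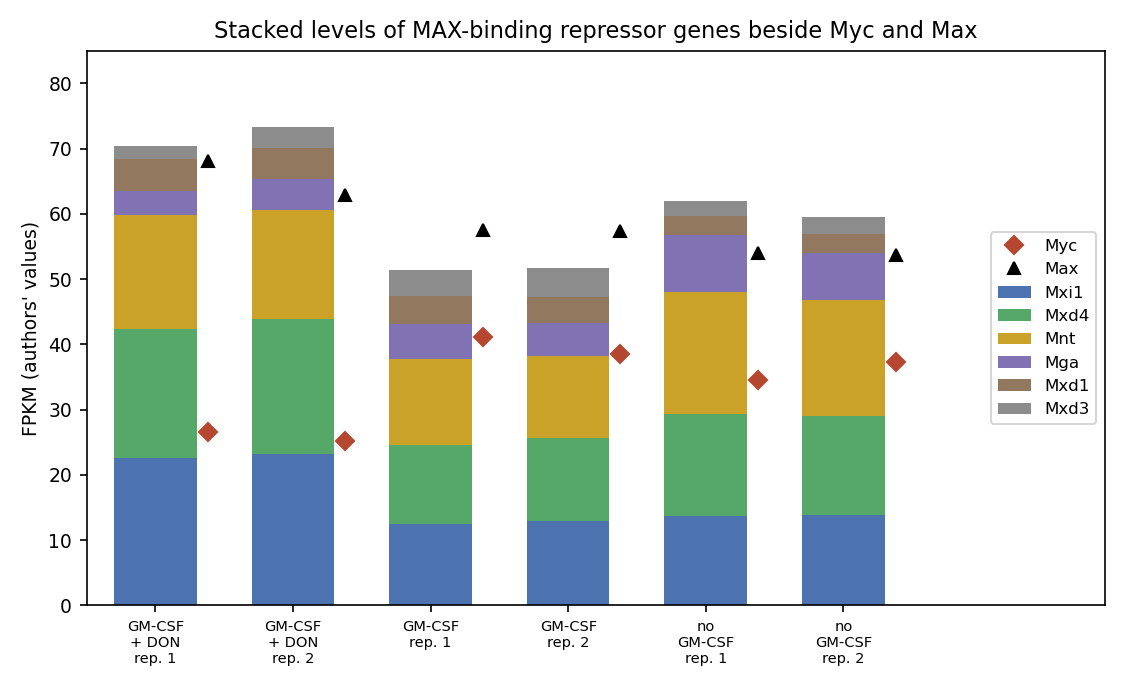
Stacked FPKM (vertical axis, from 0) of the 6 MAX-binding repressor genes in each library, with the FPKM of *Myc* and *Max* as points. The stacks reach 70.5 and 73.2 with DON, where *Myc* lies at 26.6 and 25.1 FPKM, and 51.4 and 51.7 with GM-CSF, where *Myc* lies at 41.1 and 38.6 FPKM.

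On the Mondo side of the network, *Mlx* (chr11:101087277-101092207), the dimer partner, had 52.3 and 51.4 CPM with GM-CSF and DON, 53.0 and 50.6 CPM with GM-CSF, and 42.6 and 46.7 CPM without GM-CSF. The DON and GM-CSF libraries overlapped, and both groups lay above those without GM-CSF. With DON against GM-CSF the log2 difference was below 0.01 in size (adjusted p = 0.998, edgeR), and the 95% interval of the ratio ran from 0.912 to 1.10. *Mlx* rose by 0.22 ± 0.06 with GM-CSF against none (adjusted p = 0.0108, edgeR) and by 0.22 ± 0.06 with DON against none (adjusted p = 0.0114). Dropping no GM-CSF replicate 1 ended both calls, at an adjusted p of 0.0942 and 0.105 in edgeR. The first also ended without GM-CSF replicate 1 (adjusted p = 0.0827), and the second without DON replicate 1 (adjusted p = 0.0612). On FPKM with limma and a pseudocount of 0.1 the second difference was 0.33 (adjusted p = 0.02). Exons of *Mlx* overlap *Psmc3ip* on the other strand, which had 93 to 158 counts per library; the strand setting of the counting is not given in the sources used here, so reads of the pair cannot be told apart.

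*Mlxip* (chr5:123394798-123457932), which encodes MondoA, was highest without GM-CSF. It had 66.2 and 70.8 CPM with GM-CSF and DON, 75.2 and 77.7 CPM with GM-CSF, and 98.0 and 87.1 CPM without GM-CSF. The groups did not overlap, with the DON libraries lowest. *Mlxip* fell by 0.28 ± 0.06 with GM-CSF against none (adjusted p = 0.00428, edgeR) and by 0.43 ± 0.06 with DON against none (adjusted p = 0.000271). The -0.16 ± 0.06 with DON against GM-CSF missed the threshold (adjusted p = 0.0601, edgeR) but passed without no GM-CSF replicate 1 (adjusted p = 0.0237), without no GM-CSF replicate 2 (adjusted p = 0.0227), in a fit of the 2 groups alone (adjusted p = 0.0244) and with DESeq2 size factors (adjusted p = 0.0454).

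*Txnip* (chr3:96557957-96561883) changed most of the 10 genes in every comparison. Its levels were 59.5 and 56.2 CPM with GM-CSF and DON, 134 and 139 CPM with GM-CSF, and 249 and 242 CPM without GM-CSF. The groups stood far apart, each separated by far more than the spread within it. *Txnip* was 2.37-fold lower with DON than with GM-CSF (log2 fold change -1.24 ± 0.05, adjusted p = 7.16e-08, edgeR), 1.79-fold lower with GM-CSF than without (-0.84 ± 0.05, adjusted p = 2.52e-07) and 4.24-fold lower with DON than without GM-CSF (-2.08 ± 0.05, adjusted p = 1.02e-09). Among genes that fell, it was the 339th of 3556 with DON against GM-CSF and the 1039th of 3621 with GM-CSF. A change of that size or larger was seen in 6.83% of genes with DON against GM-CSF and in 3.66% with DON against no GM-CSF. The antisense gene *Gm15441* overlaps *Txnip* on the other strand, and its reads were not analysed here. Exons of *Mxd4*, *Mxi1* and *Mlxip* likewise overlap predicted genes on the other strand, of which *Gm15747*, at *Mlxip*, had 0 to 5 counts per library.

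*Arrdc4* (chr7:68736995-68749241), the related alpha-arrestin, was highest with GM-CSF, where *Txnip* was intermediate. Its levels were 42.4 and 38.3 CPM with GM-CSF and DON, 51.2 and 58.2 CPM with GM-CSF, and 48.5 and 46.3 CPM without GM-CSF. The GM-CSF libraries were highest and the DON libraries lowest, without overlap. By counts, *Arrdc4* fell by 0.44 ± 0.08 with DON against GM-CSF (adjusted p = 0.000629, edgeR), rose by 0.21 ± 0.07 with GM-CSF against none (adjusted p = 0.0364) and fell by 0.23 ± 0.08 with DON against none (adjusted p = 0.0237). The authors' FPKM did not give this pattern: the values were 26.5 and 20.0 with GM-CSF and DON, 24.7 and 25.3 with GM-CSF, and 21.2 and 19.3 without GM-CSF.

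On FPKM with limma and a pseudocount of 0.1, *Arrdc4* gave -0.12 with DON against GM-CSF (adjusted p = 0.474), 0.30 with GM-CSF against none (adjusted p = 0.0893) and 0.19 with DON against none (adjusted p = 0.267), the last with the opposite sign. The gene length implied by counts over FPKM varied from 1597 to 2395 bases between the libraries for *Arrdc4*, an SD of 14.5%, against 1.99% for *Txnip* and 5.4% or less for the other 8 genes. By counts, the rise with GM-CSF was lost without GM-CSF replicate 2 (0.11, adjusted p = 0.284, edgeR), without no GM-CSF replicate 2 (adjusted p = 0.122), and with DESeq2 (adjusted p = 0.0526). The fall with DON against none was lost without DON replicate 2 (adjusted p = 0.184, edgeR) or no GM-CSF replicate 1 (adjusted p = 0.0808). In FPKM, *Txnip* over *Arrdc4* was 0.964 and 1.17 with GM-CSF and DON, 2.30 and 2.35 with GM-CSF, and 5.08 and 5.54 without GM-CSF.

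By level per length, *Txnip* ranked first with GM-CSF and without it, and the 4th of the 10 with DON. With GM-CSF and DON the order in mean FPKM was *Max* (65.5), *Mlx* (46.2), *Myc* (25.9), *Txnip* (24.5), *Arrdc4* (23.2), *Mxi1* (22.9), *Mxd4* (20.2), *Mnt* (17.1), *Mlxip* (10.5) and *Mxd1* (4.82). Neighbours from *Myc* to *Mxi1* overlapped there. With GM-CSF, *Txnip* (58.1) and *Max* (57.5) led and overlapped, followed by *Mlx* (44.7), *Myc* (39.9) and *Arrdc4* (24.99), and then by *Mnt* (13.0), *Mxi1* (12.7) and *Mxd4* (12.4), which overlapped each other. *Mlxip* (11.4) and *Mxd1* (4.16) were last. Without GM-CSF, *Txnip* (107) stood well above *Max* (53.8), and *Mlx* (36.9) overlapped *Myc* (35.9). *Arrdc4* (20.2), *Mnt* (18.3), *Mxd4* (15.4), the overlapping *Mlxip* (13.9) and *Mxi1* (13.7), and *Mxd1* (2.91) came after.

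Genes known to be induced by MYC were followed as a list of 35, of which 34 were tested. The list was chosen with earlier results of these data known. With DON against GM-CSF 29 of them fell and 1 rose, with a median of -0.54 on the log2 scale, beside 28.8% lower among all genes. With GM-CSF against none 25 rose and 2 fell (median 0.31), beside 27.5% higher and 29.3% lower among all genes. With DON against none 4 rose and 19 fell (median -0.20), beside 27.2% higher and 28.4% lower. *Ccnd2*, a G1 cyclin, averaged 87.0 ± 4.94 CPM with GM-CSF and DON, 189 ± 15.6 CPM with GM-CSF and 112 ± 0.62 CPM without (SD, n = 2 each), a fall of 1.12 ± 0.06 (SE) with DON against GM-CSF (adjusted p = 4.9e-07, edgeR). *Srm*, the spermidine synthase, averaged 55.1 ± 0.89 CPM with GM-CSF and DON, 107 ± 0.19 CPM with GM-CSF and 53.7 ± 3.55 CPM without. *Nolc1* and *Nop58*, of ribosome production in the nucleolus, fell by 0.95 ± 0.05 and 0.97 ± 0.06 with DON against GM-CSF (adjusted p = 5.19e-07 and 5.29e-07, edgeR).

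All 12 genes of a cell-division list also moved with the groups. All fell with DON against GM-CSF (median -1.46), beside 28.8% lower among all genes. All rose with GM-CSF against none (median 1.21), beside 27.5% higher among all genes. Their part in the changes of the network was not tested. *Aurka*, a mitotic kinase known to stabilise the MYC relative MYCN, was among the 15 genes of MYC turnover, of which 5 fell and 3 rose with DON against GM-CSF (53.3% called, against 57.6% of all genes). It averaged 8.74 ± 0.93 CPM with GM-CSF and DON, 44.6 ± 2.82 CPM with GM-CSF and 18.6 ± 0.23 CPM without. Of 9 tested genes known to be repressed by MYC, 5 rose and 1 fell with DON against GM-CSF (66.7% called, against 57.6%). The 2 with the smallest adjusted p, *Ddit3* and *Gadd45a*, rose by 2.59 ± 0.08 and 2.80 ± 0.10 (adjusted p = 2.68e-08 and 4.22e-08, edgeR). Both are also known as stress-response genes. This list of genes repressed by MYC had 3 higher and 4 lower with GM-CSF against none (median -0.01, 77.8% called, against 56.8% of all genes). It had 6 higher and 2 lower with DON against none (88.9% called, against 55.6%). *Cdkn1a* rose with GM-CSF against none (1.66 ± 0.07, adjusted p = 2.49e-08, edgeR), while *Gadd45a* fell (-1.71 ± 0.11, adjusted p = 5.34e-07). Of 15 MYC cofactors 6 fell and 3 rose with DON against GM-CSF, and the 60.0% called was near the 57.6% of all genes. *Actl6a*, of chromatin-remodelling complexes, had the smallest adjusted p of them (-0.55 ± 0.06, adjusted p = 2.69e-05, edgeR), and *Hcfc1*, a host cell factor, a larger fall (-0.75 ± 0.11, adjusted p = 0.000298).

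Of 16 genes of the SIN3 corepressor and its partners, which the MXD proteins recruit, 6 fell, 2 rose and 8 did not pass with DON against GM-CSF, beside a 57.6% share of calls over all genes. *Hdac1*, a histone deacetylase, averaged 46.6 ± 2.26 CPM with GM-CSF and DON, 76.8 ± 0.51 CPM with GM-CSF and 56.8 ± 0.31 CPM without.

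Glucose-responsive genes other than *Txnip* and *Arrdc4* moved in both directions. Of 12 tested, 6 fell and 3 rose with DON against GM-CSF (median -0.41), and 4 fell and 5 rose with GM-CSF against none (median 0.08). This is 75.0% called in both, against 57.6% and 56.8% of all genes. *Klf10*, a zinc-finger repressor, fell by 0.96 ± 0.05 with DON against GM-CSF (adjusted p = 3.62e-07, edgeR), while *Khk*, the fructokinase, rose by 1.49 ± 0.12 (adjusted p = 3.25e-06). Of the 3 other alpha-arrestins tested, *Arrdc2* and *Arrdc3* rose with DON against GM-CSF by 0.58 ± 0.12 and 0.39 ± 0.12 (adjusted p = 0.00218 and 0.0173, edgeR), against the fall of *Txnip*.

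Partners of the TXNIP protein moved in both directions: 6 of 10 rose and 3 fell with DON against GM-CSF, and 2 rose and 7 fell with GM-CSF against none, 90.0% called in both, against 57.6% and 56.8% of all genes. *Txn1*, the thioredoxin that TXNIP binds, averaged 738 ± 30.3 CPM with GM-CSF and DON, 503 ± 11.9 CPM with GM-CSF and 983 ± 53.6 CPM without. *Txnrd1*, the reductase of thioredoxin, averaged 202 ± 0.94 CPM with GM-CSF and DON, 312 ± 19.7 CPM with GM-CSF and 410 ± 9.27 CPM without, the same order of groups as for *Txnip*. *Nlrp3*, an inflammasome sensor, averaged 15.9 ± 0.05 CPM with GM-CSF and DON, 31.7 ± 1.04 CPM with GM-CSF and 26.3 ± 0.45 CPM without. Of 11 genes of glucose uptake and phosphorylation 5 fell and 3 rose with DON against GM-CSF, and 7 fell and 1 rose with GM-CSF against none, 72.7% called in both, against the same shares of all genes. *Slc2a1*, the glucose transporter GLUT1 whose surface level TXNIP is known to lower, averaged 60.9 ± 1.46 CPM with GM-CSF and DON, 97.2 ± 4.15 CPM with GM-CSF and 56.0 ± 0.21 CPM without.

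**Figure D5:**
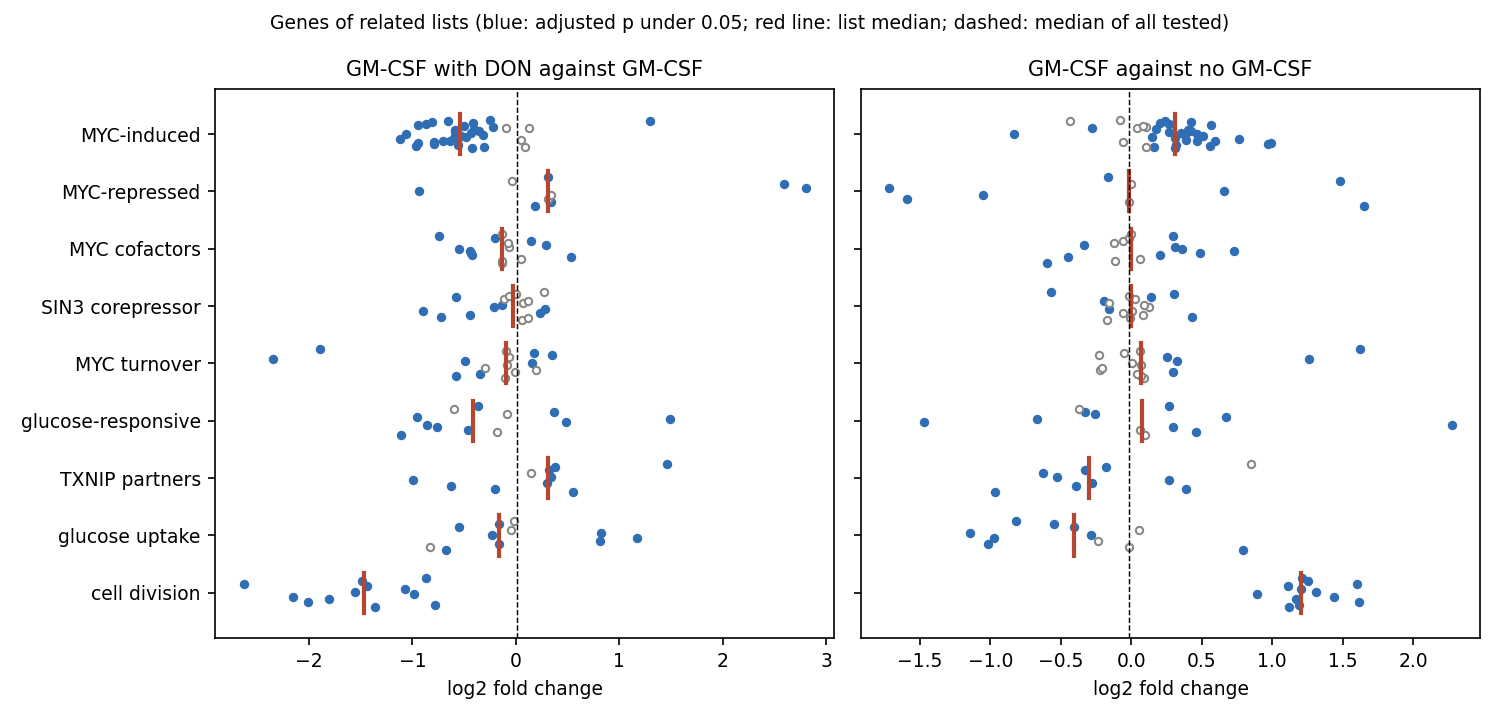
Log2 fold changes (horizontal axis) of the genes in lists related to the network, in 1 panel for the addition of DON and 1 panel for GM-CSF alone against none. Blue points passed an adjusted p of 0.05, the red line is the list median and the dashed line the median of all genes tested; the MYC-induced list has medians of -0.54 and 0.31.

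The genes nearest in pattern were found among 7660 others with a mean of at least 10 CPM, by the root mean square (RMS) difference of centred log2 CPM over the 6 libraries. For *Txnip* the nearest genes, *Pid1* (RMS 0.068), *Stard4* (0.075) and *Lrrc25* (0.11), lay farther off than those of the other 9 members, with *Pid1* at 17.9 CPM with GM-CSF and DON, 44.7 CPM with GM-CSF and 84.2 CPM without. The RMS is not scaled to the size of the changes, which were largest for *Txnip*. Pearson's r of *Pid1* with *Txnip* was 0.999. *Myc* was matched by *Rbbp7* (0.016), *Txnl4a* (0.029) and *Paqr4* (0.031). *Rbbp7*, also in the SIN3 list, averaged 95.9 CPM with GM-CSF and DON, 144 CPM with GM-CSF and 130 CPM without. For *Mxd4* the nearest were *Comtd1* (0.013), *Tmub2* (0.036) and *Cd36* (0.036), and for *Mxi1* *Appl2* (0.026), *Rnf11* (0.041) and *Ints12* (0.043). *Mnt* was followed most closely by *Srd5a3* (0.022), *Max* by *Tdp1* (0.021), *Mxd1* by *Scamp1* (0.028), *Mlx* by *Luc7l* (0.026), *Mlxip* by *Hook3* (0.02) and *Arrdc4* by *Fam98b* (0.031). Pearson's r of the nearest gene was between 0.973 and 0.999 over the same 6 libraries, and is a description over 3 groups.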

How the data were processed

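RNA-seq data of 6 libraries in 3 groups of 2 were used. The deposited values were whole-number counts per gene symbol, made by the authors, and the authors' deposited FPKM values for the same genes. Per the submitters' processing notes, the tools were featureCounts and Subread 1.4.6, STAR 2.6.0a and DESeq2 1.28.1, with the build mm10, and no roles are stated. Annotation, strand setting and filters: not given in the sources used here.

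Groups came from the sample labels. Counts were filtered with filterByExpr (minimum count 10), scaled by TMM and fitted with edgeR 4.0.16 (R 4.3.3) in 1 quasi-likelihood model over the 6 libraries, with 1 coefficient per group, and p-values were adjusted by Benjamini-Hochberg over 12340 genes. The fit had 3 residual and 6.74 prior degrees of freedom. Intervals of ratios use their sum. Levels are CPM after TMM scaling, or FPKM where genes are compared. The steps were tested on simulated data. Replicates were not copies of each other: the chi-square per degree of freedom was 4.5 with DON, 5.29 with GM-CSF and 8.46 without GM-CSF. Alternatives were DESeq2 1.42.0, its size factors, no filter, the 2 groups alone, a replicate block, each library left out, and, chosen after seeing the data, limma 3.58.1 on log2(FPKM + 0.1) or log2(FPKM + 1). Python 3.11.15 and matplotlib 3.10.9 made tables and figures.

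The 10 genes and all lists were chosen with earlier results of these data known, and no list was tested as a set. Named genes were the 10 members and the other network genes, up to 4 genes per list with the smallest adjusted p in a comparison, and up to 3 genes nearest in pattern to each member. Gene positions are from GENCODE M21 (GRCm38) and promoters from RefSeq (GRCm38.p6). Some values of single genes in the marker and related lists are not reported here.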

Additional observations from a re-analysis of the deposited data

How the results depend on the processing

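Over 13 alternatives, 390 values were recomputed for the 10 genes in 3 comparisons. Of these, 356 kept their direction and their side of the threshold, 22 lost their call, 5 gained one and 7 changed sign. A called value changed sign for *Arrdc4* with DON against no GM-CSF on FPKM, at 0.19 and 0.18 on the log2 scale with pseudocounts of 0.1 and 1, against -0.23 by counts. The other 5 were *Mlx* with DON against GM-CSF, which was near 0 and never called: 0.0025 with no filter, 0.046 and 0.045 on FPKM with pseudocounts of 0.1 and 1, 0.030 without GM-CSF replicate 1 and 0.017 without DON replicate 2. It ranged from -0.034 to 0.030 when each library was left out. Of the other network genes, neither called in these comparisons, *Mga* with DON against GM-CSF ranged from -0.15 to 0.050 and *Mxd3* with DON against no GM-CSF from -0.22 to 0.37 when each library was left out. The authors' FPKM carry a length that differs between libraries, and the cause was not tested. The count of genes that rose with GM-CSF against none was 4 by counts and 2 on FPKM with either pseudocount, and ranged from 2 to 4 when each library was left out. *Txnip*, *Mxi1*, *Mxd4*, *Mnt* and *Myc* kept their calls with DON against GM-CSF under all 13. No scaling moved the median of all genes by over 0.1.

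The labels do not say whether replicate numbers pair the libraries. The correlations that follow cannot settle this, because each group gives only 1 difference between replicates. The differences between replicates 1 and 2 correlated at 0.0676 between DON and GM-CSF, at -0.0476 between GM-CSF and no GM-CSF, and at -0.311 between DON and no GM-CSF. With the replicate block, 6882, 6708 and 6542 genes passed in these comparisons, and *Arrdc4* lost its call with GM-CSF (0.21, adjusted p = 0.0583, edgeR). With 2 libraries per group, the SE of the log2 differences had a median of 0.08, which limits what could be called.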

Other observations

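A match to the searched ChoRE pattern, which allows any base at several positions, was in the promoter windows of 15 gene symbols. *Txnip* is among these 15, of which 9 were tested. Of the 8 besides *Txnip*, 3 rose and 3 fell with DON against GM-CSF (28.8% of all genes rose and 28.8% fell). With GM-CSF against none 1 rose and 4 fell (27.5% and 29.3% of all genes), and with DON against no GM-CSF 1 rose and 3 fell (27.2% and 28.4%). With DON against GM-CSF, *Rbmxl1* fell by 0.50 ± 0.05 (SE; adjusted p = 2.47e-05, edgeR), *A430005L14Rik* by 0.32 ± 0.07 (adjusted p = 0.00381) and *Fem1b* by 0.18 ± 0.07 (adjusted p = 0.035). *Man2b2*, a lysosomal mannosidase, rose by 0.63 ± 0.04 (adjusted p = 8.42e-07, edgeR), *Irak1bp1* by 0.74 ± 0.20 (adjusted p = 0.0109) and *Fnip1*, a folliculin partner, by 0.34 ± 0.06 (adjusted p = 0.000526). *Nfkb2*, an NF-kappaB subunit, and *Rbbp4*, a histone-binding protein, did not pass, at 0.13 ± 0.06 (adjusted p = 0.119, edgeR) and -0.11 ± 0.04 (adjusted p = 0.057).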
